A study of Mus musculus with 10 samples.

Results

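The genes described here are 8 members of the Sox family (Sox1, Sox8, Sox9, Sox10, Sox11, Sox14, Sox18 and Sox21), chosen by name among 21938 protein-coding genes of the GENCODE M21 annotation on 21 mouse chromosomes. For each of them the H3K4me3 peaks and the ATAC-seq peaks were read within 5 kb of the gene start and over the gene body, and the open sites (ATAC-seq peaks) were read up to 100 kb on either side. The study compared chromatin interaction maps from PLAC-seq, and its H3K4me3 ChIP-seq and ATAC-seq peaks served to mark promoters and regulatory elements. All samples came from F123, a mouse embryonic stem (ES) cell line from a cross of Mus musculus castaneus with S129/SvJae, which carries one genome of each parent and is a single line without a treated or mutant group. The cells were kept with LIF and knockout serum replacement on irradiated CF1 embryonic fibroblasts, and were grown for 1 passage on gelatin without these feeders before harvest. Each assay had 2 biological replicates, and each was represented by 1 list of peaks that stood for both, so no value below has a spread between replicates and no test was made. Read counts were not part of the lists, and the depth behind each peak is unknown.

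Sox proteins bind DNA through an HMG box, a domain related to that of the sex-determining factor Sry, and the family is divided into groups by the similarity of that box. Sox1 belongs to group B1 and marks early neural progenitors, Sox14 and Sox21 form group B2 and act in neural progenitors and in interneurons, and Sox11 of group C acts in maturing neurons. Sox8, Sox9 and Sox10 form group E, which acts in the neural crest and its derivatives, with Sox9 also directing cartilage and testis development and Sox10 directing melanocytes and peripheral glia. Sox18 of group F is best known from blood and lymphatic vessels, and so stands apart from the others by its known role. H3K4me3 is a histone mark found at the starts of active genes, and in ES cells also at the starts of silent developmental genes, where it can lie beside the repressive mark H3K27me3. ATAC-seq cuts DNA that is not wrapped tightly and so reports open chromatin. Neither assay measures RNA, and H3K27me3 was not analysed here.

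The H3K4me3 list held 33487 peaks with a median width of 1135 bp, and the ATAC-seq list held 179109 peaks with a median width of 261 bp. As a check of the labelled cell type, 9 of 10 ES cell markers had an H3K4me3 peak over their start. The share over all coding genes was 61.1%. The ES cell markers had a median of 5457.5 bases of H3K4me3 within 5 kb, against 1761 over all coding genes. Esrrb was the exception at its annotated start, which an ATAC-seq peak covered. Of 8 fibroblast markers, 5 had an H3K4me3 peak over the start, near the share over all coding genes. These 8 had a median of 823.5 bases within 5 kb and the most, 2869, at Col1a1. Col1a2 and Thy1, named after their values were seen, reached fold enrichments of 20.4 and 19.6, and Postn and Lum had no H3K4me3 peak within 5 kb. The part of feeder cells in the values of the Sox genes was not tested. In bulk lists of this kind a mark carried by some cells and a weaker mark carried by all cells cannot be told apart.

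The promoter sequences of the members carried many CpG dinucleotides. RefSeq promoters were matched for 5 of the 8 genes, and 4 are printed to show the DNA that lies under the mark, 1 from each of groups C and E and both of group B2. Each is the 250 bases upstream of the RefSeq start, 5′ to 3′ on the strand of the gene, on GRCm38.p6 (mm10), with each CpG in capitals. The positions are chr9:99876171-99876420 (minus strand) for Sox14, chr14:118237031-118237280 (minus strand) for Sox21, chr12:27342719-27342968 (minus strand) for Sox11 and chr17:25570687-25570936 (minus strand) for Sox8.
Sox14: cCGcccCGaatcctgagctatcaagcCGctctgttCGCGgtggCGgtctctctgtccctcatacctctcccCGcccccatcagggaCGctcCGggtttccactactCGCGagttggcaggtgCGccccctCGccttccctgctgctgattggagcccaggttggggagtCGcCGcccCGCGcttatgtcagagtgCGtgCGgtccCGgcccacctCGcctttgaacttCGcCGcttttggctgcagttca
Sox21: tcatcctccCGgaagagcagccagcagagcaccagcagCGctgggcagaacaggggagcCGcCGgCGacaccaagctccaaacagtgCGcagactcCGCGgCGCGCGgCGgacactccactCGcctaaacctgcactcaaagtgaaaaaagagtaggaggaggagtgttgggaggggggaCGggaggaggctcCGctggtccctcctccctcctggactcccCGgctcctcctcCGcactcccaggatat
Sox11: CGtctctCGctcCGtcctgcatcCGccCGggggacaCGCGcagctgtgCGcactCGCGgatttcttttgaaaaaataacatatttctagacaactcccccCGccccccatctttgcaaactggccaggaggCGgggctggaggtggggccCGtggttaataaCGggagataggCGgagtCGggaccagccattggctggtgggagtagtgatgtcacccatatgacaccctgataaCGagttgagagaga
Sox8: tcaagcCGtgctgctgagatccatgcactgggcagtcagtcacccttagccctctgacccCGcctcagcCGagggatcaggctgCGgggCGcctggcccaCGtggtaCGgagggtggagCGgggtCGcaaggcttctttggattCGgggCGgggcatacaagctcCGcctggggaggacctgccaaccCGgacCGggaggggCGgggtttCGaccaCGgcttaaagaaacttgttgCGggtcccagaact
None of them overlaps an exon of the Sox gene itself. They held 23 CpG dinucleotides for Sox14, 18 for Sox8, and 17 each for Sox11 and Sox21, against a median of 6 over 32851 RefSeq promoters. The Sox1 stretch, which overlaps the first GENCODE exon and is not printed, held 29. All 250 bases of each of the 5 promoters lay inside an H3K4me3 peak.

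All 8 genes carried H3K4me3 and open chromatin beside their starts in these ES cells. Within 5 kb, 8 of 8 members had an H3K4me3 peak, where 69.3% of all coding genes had one, and a peak covered the start itself in 7 of 8, against 61.1% of all. An ATAC-seq peak lay within 5 kb of 8 of 8 members, against 81.3% of all coding genes, and covered the start in 7 of 8, against 62.5%. Most coding genes thus passed the same criteria, and the members' counts alone do not set them apart. Sox10, the melanocyte and glial factor, was the exception in both counts. Its H3K4me3 peak began 166 bp downstream of the 5′ end of the gene record, and 8 of 8 members had a covered start in both lists when every annotated transcript start was used. When the start had to lie in the middle 50% of the peak, both counts were 5 of 8.

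What differed from most genes was the breadth of the mark. The members had a median of 5768.5 bases in H3K4me3 peaks within 5 kb of the start. The median was 1761 over all coding genes and 2337 over the 15201 coding genes with such a peak, and all 8 members lay above both. Sox1 had 7432 bases, Sox14 7429, Sox21 6520, Sox11 6360, Sox9 5177, Sox8 3075, Sox10 2630 and Sox18 2404. By this total the neural genes of groups B and C lay highest, followed by the crest and cartilage gene Sox9. Sox8, Sox10 and the vessel gene Sox18 formed the lower end. By the width of the start peak alone, Sox9 (4891 bp) lay above Sox1 (4354 bp) and Sox14 (3447 bp). The totals of Sox1 and Sox14 include weak peaks, with fold enrichments of 2.98 to 3.92 at Sox1 and of 2.68 and 2.78 at Sox14. That of Sox14 also includes part of a peak past the end of the gene. With no spread between replicates, the order of close neighbours such as Sox1 and Sox14 cannot be judged. Sox1 and Sox14 each had more H3K4me3 bases than 99.6% of coding genes, and Sox18 more than 67.0%. With a window of 1 or 2 kb, 6 of the 8 members lay above the median of the marked genes, and Sox10 and Sox18 lay below it.

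**Figure D1:**
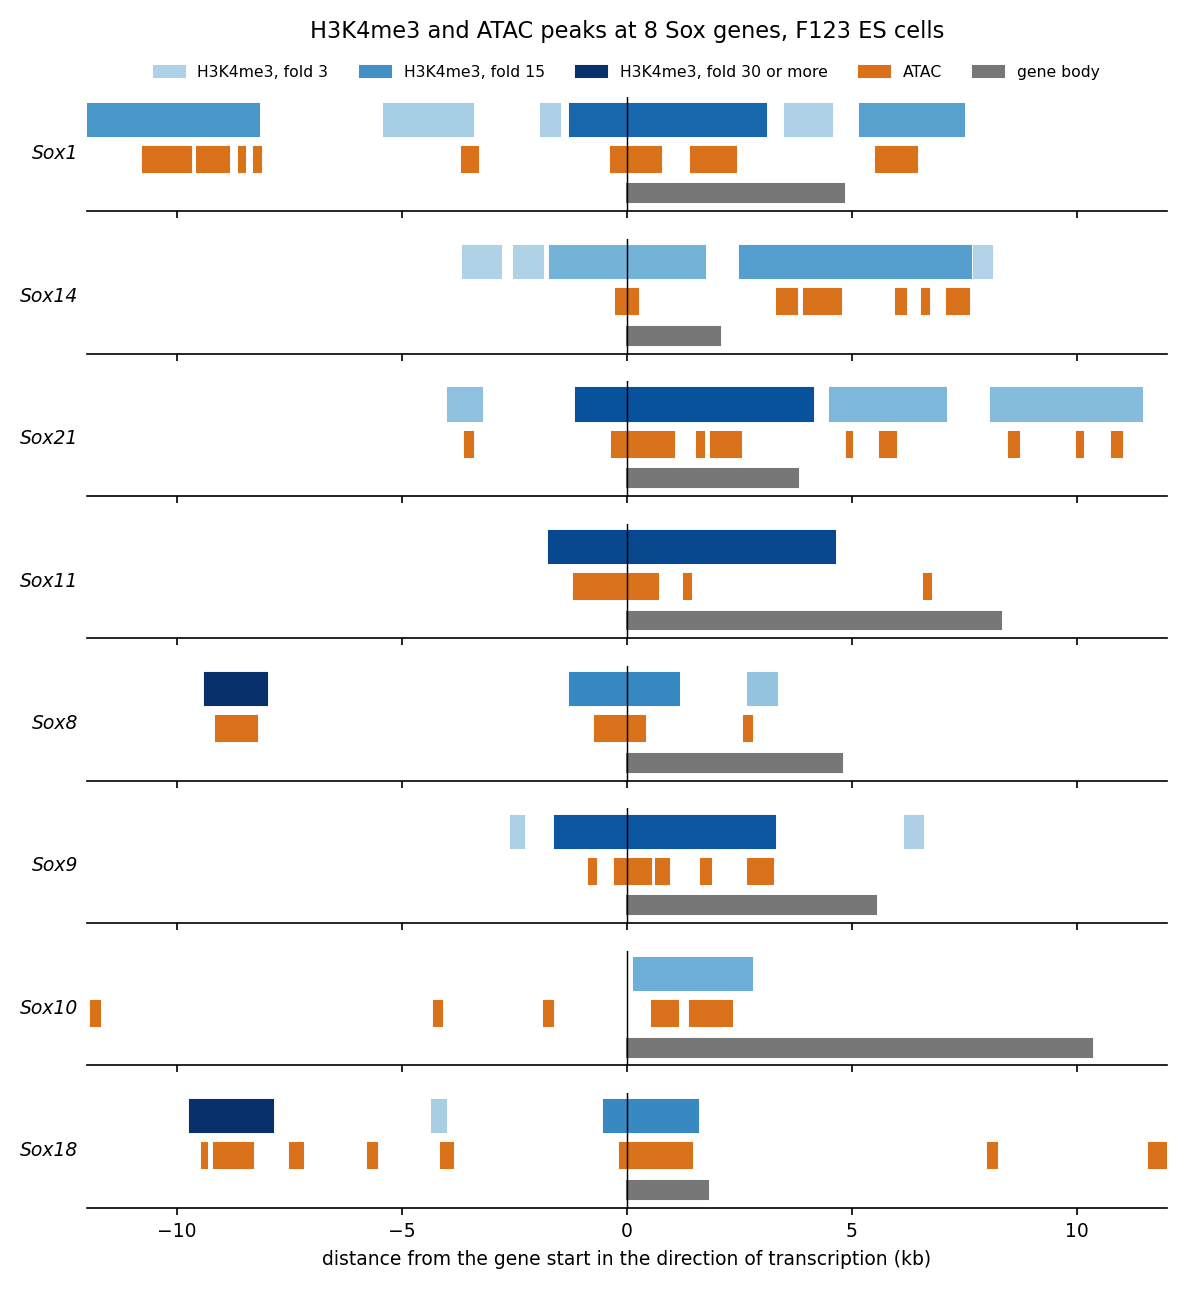
Peaks around the start of each Sox gene, drawn by distance in kb from the start in the direction of transcription: H3K4me3 peaks (blue, darker with higher fold enrichment), ATAC-seq peaks (orange) and the gene body (grey). H3K4me3 runs over 6360 bp in a single peak at Sox11 and over several peaks at Sox1, Sox14 and Sox21, while the Sox18 start peak is 2102 bp wide; at Sox10 the peak begins 166 bp inside the gene.

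The strength of the mark was moderate at the same genes. Fold enrichment is the ratio to the background that the peak caller modelled. Its highest value, over all peaks that touch the 5 kb window, ranged from 9.80 at Sox10 to 26.3 at Sox11. At Sox14 this value, 12.7, came from a peak with its summit 6732 bp downstream of the start, and the start peak had 9.20. The median of the highest value over the members was 19.03, against 30.7 over the coding genes with a peak, and 0 of 8 members lay above 30.7. Over all coding genes, those without a peak counted as 0, the median was 21.5, and 4 of 8 members lay above it. The highest −log10 q within 5 kb had a median of 194 in the members and 447 in the marked genes, and again 0 of 8 members lay above the latter. The median over all coding genes was 243, with 3 of 8 members above it. Broad H3K4me3 peaks elsewhere were stronger. Among 12100 H3K4me3 peaks over coding starts, the 1024 that were at least 3900.5 bp wide had a median fold enrichment of 37.3, with quartiles of 27.0 and 46.8. This cut is the median width of the members' own peaks at or nearest the start, so 4 of 8 members passed it by the choice. The 4 members in that range of width, Sox1, Sox9, Sox11 and Sox21, had start peaks with fold enrichments of 21.5, 24.0, 26.3 and 24.9, each below the lower quartile.

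**Figure D2:**
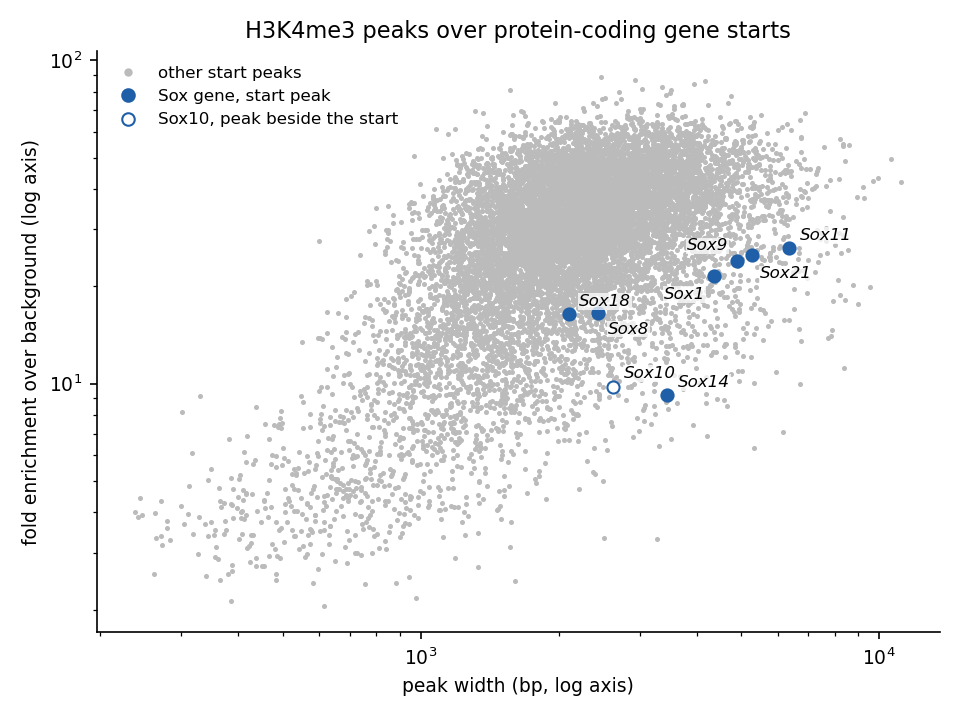
Width (bp) against fold enrichment of the 12100 H3K4me3 peaks over coding gene starts (grey), on log axes, with the start peaks of the Sox genes (blue) and the peak nearest to the Sox10 start (open circle). The members lie inside the cloud at fold enrichments of 9.20 to 26.3, below the median of all start peaks of 30.6.

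Sox1 (chr8:12395295-12400126, plus strand, a gene of 1 exon) carried the mark in several separate peaks. Its start lay in a peak of 4354 bp that reached from 1268 bp upstream to 3085 bp downstream, enriched 21.5-fold at a −log10 q of 163. There were 4 H3K4me3 peaks within 5 kb, and H3K4me3 covered 85.6% of the gene body. A peak of 994 bp and a peak of 1095 bp in the ATAC-seq list lay over the body, the latter on the start. Another H3K4me3 peak, 4159 bp in width and enriched 13.9-fold, covered the start of Sox1ot, a noncoding gene that overlaps Sox1 on the same strand, and ended 8182 bp before the Sox1 start. Farther on, a peak of 1927 bp with a fold enrichment of 17.7 lay 34599 to 36525 bp downstream, inside Sox1ot, with 3 ATAC-seq peaks. Within 100 kb of Sox1 there were 12 H3K4me3 peaks and no other coding gene start, and 8 of these peaks lay outside the 5 kb window.

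The B2 genes differed from each other in where the mark was strongest. At Sox14 (chr9:99874106-99876170, minus strand, 1 exon block) the start peak spanned 3447 bp at an enrichment of 9.20-fold, the lowest start peak of the members. A wider peak of 5144 bp lay 2520 to 7663 bp downstream of the start, past the end of the gene, with a fold enrichment of 12.7, and it held 5 ATAC-seq peaks where the start peak held 1. The start peak, this peak and 3 small ones formed a domain of 11760 bp when peaks at most 1 kb apart were joined, wider than 99.9% of 28934 such domains. At Sox21 (chr14:118233232-118237030, minus strand, 1 exon block) the start peak was stronger and wider, 5276 bp with a fold enrichment of 24.9. It covered 100% of the gene body, the only member so covered, and a further peak of 2578 bp with a fold enrichment of 8.13 followed 4511 bp downstream of the start. Both B2 genes thus carried H3K4me3 beyond their 3′ ends. So did Sox1, with a peak of 2316 bp enriched 12.2-fold that lay 5177 to 7492 bp downstream of its start. A weak peak, enriched 3.19-fold, lay past the 3′ end of Sox9. In all, 3 or more H3K4me3 peaks within 5 kb were found at Sox1, Sox14 and Sox21, which is 3 of 8 members, against 4.57% of all coding genes.

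Sox11 (chr12:27334264-27342574, minus strand, 1 exon block), the group C gene, had a single peak that was also the widest start peak of the members. It was 6360 bp wide, from 1737 bp upstream to 4622 bp downstream, wider than 99.2% of the start peaks. Its fold enrichment of 26.3 and −log10 q of 373 were the highest of the members. The ATAC-seq peak over the start was 1874 bp wide, the widest among the 201 open sites of the 8 genes. There was no other H3K4me3 peak within 100 kb of Sox11. The mark covered 55.6% of the gene body, whose long 3′ part lay outside it.

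In group E the mark went from broad at Sox9 to narrower at Sox8 and Sox10. The peaks of Sox8 and Sox10 were still wider than the median start peak of coding genes, 2149 bp. At Sox9 (chr11:112782224-112787760, plus strand, 3 exon blocks) the start peak spanned 4891 bp, enriched 24.0-fold, and 5 separate ATAC-seq peaks lay within 5 kb, all inside it. At Sox8 (chr17:25565892-25570686, minus strand, 3 exon blocks) the start peak spanned 2432 bp, enriched 16.6-fold, with 1 ATAC-seq peak of 1111 bp on the start. A second, weaker H3K4me3 peak of 643 bp, with a fold enrichment of 5.95, lay 2697 bp downstream of the Sox8 start. Noncoding genes on the opposite strand also start under the peaks of Sox8 (2810468N07Rik), Sox9 (BC006965) and Sox21 (Gm4675). At Sox1, the start of Gm25239 lay under the start peak and that of Gm45560 under a peak of 1986 bp, and neither is a coding gene. The share of the mark that belongs to each start cannot be told apart. At Sox10 (chr15:79154908-79165240, minus strand, 5 exon blocks) the only peak spanned 2630 bp, enriched 9.80-fold at a −log10 q of 62.1, and held 2 ATAC-seq peaks of 577 and 927 bp.

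Sox18 (chr2:181669836-181671640, minus strand, 2 exon blocks), the vessel gene, had the narrowest start peak of the members, 2102 bp with a fold enrichment of 16.4. This width lay just below the median start peak of coding genes, 2149 bp. The gene is 1805 bp long, and the peak covered 88.1% of it. One ATAC-seq peak of 1609 bp covered 80.3% of the gene, where the other members had 12.0% to 49.7% of their bodies in ATAC-seq peaks. H3K4me3 covered 25.5% of the body at Sox10, 37.6% at Sox8, 59.6% at Sox9 and 84.3% at Sox14. These shares depend on gene length, which ranged from 1805 bp at Sox18 to 10333 bp at Sox10.

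Open chromatin took up more bases but a smaller share of the broad domains than of the narrow ones. The open bases were 2021 to 3006 in the 5 broadest domains and 1111 to 1609 in the 3 narrowest. The share is the open bases divided by the domain width, so a wider domain lowers it. ATAC-seq peaks covered 76.5% of the H3K4me3 domain at Sox18, 57.2% at Sox10 and 45.7% at Sox8. They covered 35.0% at Sox9, 32.8% at Sox21, 31.9% at Sox1, 31.8% at Sox11 and 22.5% at Sox14. The median over 12120 domains at coding starts was 45.3%, so the 5 broadest domains lay below it and the 3 narrowest above it, Sox8 by a small margin. That median is over domains of all widths, and no comparison at like width was made. The widths, and so these shares, depend on the gap at which peaks are joined, which is 1 kb here. In bases, all 8 members had more ATAC-seq cover within 5 kb than the median coding gene, from 1288 at Sox8 to 2499 at Sox21, against 980. The median of the marked genes was 1181.

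The CpG content of the start region was compared because H3K4me3 is known to lie on CpG-rich DNA. In the 2 kb centred on the start, the ratio of observed to expected CpG had a median of 0.715 in the members and 0.474 in 21916 coding genes without unknown bases there. It was highest at Sox11 (0.966) and lowest at Sox10 (0.306), with the other 6 between 0.599 (Sox8) and 0.755 (Sox9). Sox10 was thus the only member below the median of all genes, and also had the weakest mark by its highest fold enrichment. By the start peak alone Sox14 was weaker, at 9.20 against 9.80 for the peak beside the Sox10 start, with a CpG ratio of 0.631. The H3K4me3 peak of Sox10 reached 2795 bp downstream with the summit at 1525 bp, so much of the marked DNA lay outside these 2 kb. The ATAC-seq peak of 927 bp inside it held 71 CpG dinucleotides at a GC share of 67.1%. All genes were then divided into 10 equal bins by this ratio. Within its own bin, where 57.0% of genes had an H3K4me3 peak within 5 kb, Sox10 exceeded 89.5% in H3K4me3 bases and 66.7% in fold enrichment. The other 7 members lay at or below 13.9% of the genes of their bin in fold enrichment, with Sox14 lowest at 3.01%. In H3K4me3 bases, Sox1, Sox9, Sox11, Sox14 and Sox21 exceeded 93.0% to 99.2% of the genes of similar CpG ratio, Sox8 exceeded 75.2% and Sox18 33.2%.

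**Figure D3:**
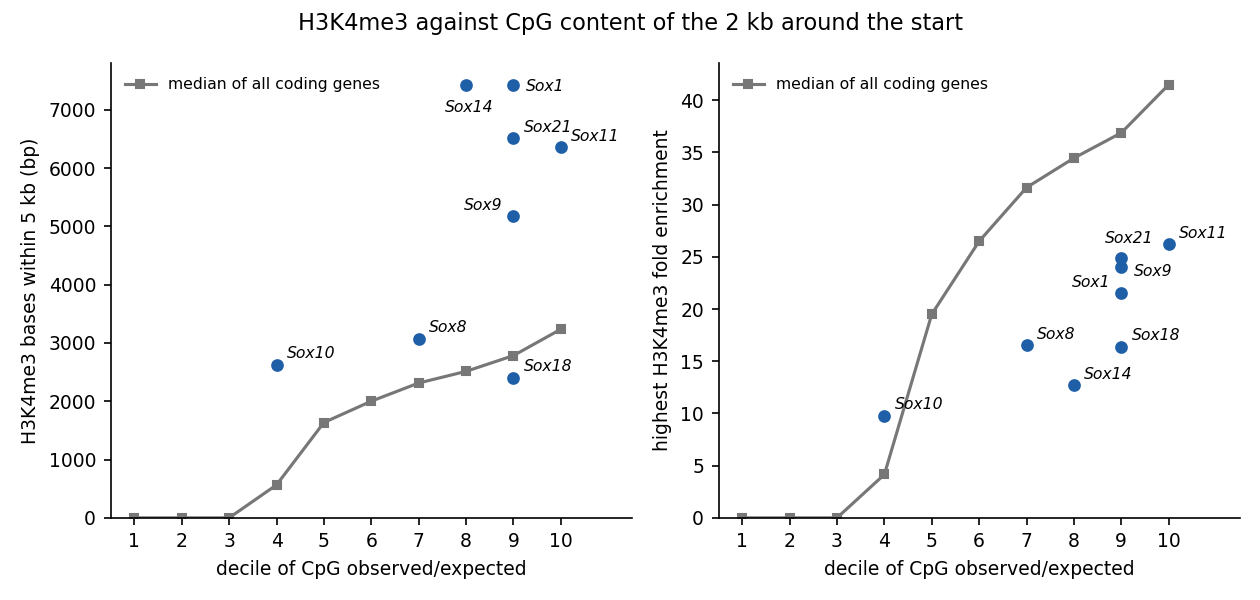
H3K4me3 bases within 5 kb (left) and highest fold enrichment (right) of each Sox gene (blue) against its bin (decile) of coding genes by observed/expected CpG, with the median of all genes in each bin (grey line). In bins 7 to 10 the members lie below the line for fold enrichment, and all but Sox18 lie above it for bases.

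In the 100 kb on either side of the 8 starts there were 201 open sites, each counted once. Their number per gene ran from 10 at Sox14 and 15 at Sox11 through 19 at Sox8, 21 at Sox9 and 28 at Sox1 to 32 at Sox18, 32 at Sox21 and 44 at Sox10. The median of 24.5 was near that of all coding genes, 22, and 4 of 8 members lay above it. Of these sites 41.8% overlapped an H3K4me3 peak, against 21.1% of all ATAC-seq peaks on the 21 chromosomes. By annotation 20.4% lay within 1 kb of a gene start, 14.9% in exons, 26.9% in introns and 37.8% between genes, and the same shares over all ATAC-seq peaks were 14.6%, 9.96%, 36.1% and 39.4%. The windows were centred on gene starts, 8 of 8 with H3K4me3 beside them, while the list as a whole was not, so the 2 sets of shares describe differently chosen regions.

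The neighbourhoods differed in how many coding genes they held, with a median of 3 other coding starts within 100 kb over all coding genes. No other coding start lay within 100 kb of Sox1, Sox9, Sox11 or Sox14. The nearest was 873370 bp away at Sox11, 837118 bp at Sox9, 158903 bp at Sox14 and 116476 bp at Sox1. For Sox9, Sox11 and Sox14 the member was the nearest coding gene to 100% of the open sites, and for Sox1 to 82.1%. Sox21 and Sox8 each shared the window with 2 other coding genes, Sox10 with 7 and Sox18 with 10, and these members were nearest to 43.8%, 21.1%, 18.2% and 6.25% of the sites. Only Sox10 and Sox18 of the members lay above the median number of neighbours. Nearness was used only to describe a site and does not assign it to a gene.

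**Figure D4:**
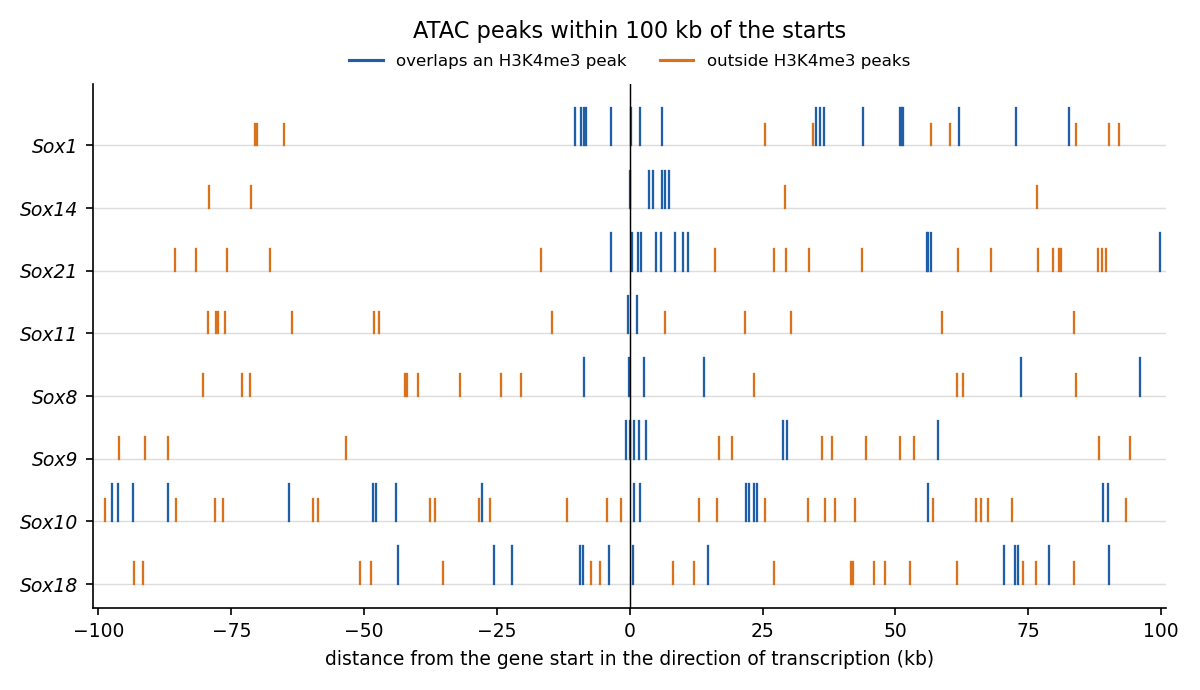
ATAC-seq peaks within 100 kb of each Sox gene start, by distance in kb in the direction of transcription, in blue and taller where they overlap an H3K4me3 peak and in orange where they do not. Sox14 has 10 sites, 6 of them within H3K4me3 close to the gene, and Sox10 has 44 spread over both sides.

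The sides of the gene were unequal at several members. Sox21 had 26 sites downstream of its start and 6 upstream, Sox1 had 20 and 8, Sox9 16 and 5, and Sox14 8 and 2. Sox10 had 22 on each side, and Sox8 and Sox11 had more upstream (11 against 8 and 9 against 6). At Sox9 the open sites downstream included 2 places that also carried H3K4me3 far from the 5′ end of any gene record. They lay at 28139 bp (1460 bp wide, fold enrichment 9.47) and 57611 bp (1291 bp wide, fold enrichment 8.18). At Sox21 such a place lay 55970 bp downstream, 1160 bp in width, enriched 16.9-fold and with 3 ATAC-seq peaks. At Sox8 one lay 95667 bp downstream, 787 bp in width, enriched 15.2-fold and with 1 ATAC-seq peak. H3K4me3 peaks outside the 5 kb window and over 5 kb from the 5′ end of any gene record numbered 5 at Sox1. Only the strongest of these, enriched 17.7-fold, is described above. Of such peaks Sox10 had 4, Sox9 had 3, Sox8 and Sox21 had 2 each and Sox14 had 1.

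Outside H3K4me3 and over 5 kb from any gene start, the widest open site was 1233 bp at Sox9, 824 bp at Sox10, 705 bp at Sox11, 464 bp at Sox18, 364 bp at Sox21, 336 bp at Sox1, 282 bp at Sox8 and 189 bp at Sox14. The Sox9 site lay between genes, 87714 to 88946 bp downstream of the start, and was the only one over 1 kb. The Sox11 site, 63152 to 63856 bp upstream, was 96.9% sequence that the RefSeq assembly marks as repeat or low complexity, and the Sox1 site was 86.0%. At Sox11 7 of 15 open sites were at least 50% such sequence, compared with 12.9% of the 201 sites and 44675 of all 178722 ATAC-seq peaks. Reads from repeats are harder to place, and how the mapper treated them is not given in the sources used here. As examples to set beside the promoters of the same genes, the Sox14 site and the Sox8 site, the shortest of the 8 and low in such repeats, are printed on the plus strand of GRCm38.p6, with CpG in capitals. The former lies between genes at chr9:99846906-99847094, 29076 to 29264 bp downstream of Sox14. The latter is at chr17:25602451-25602732, 31765 to 32046 bp upstream of Sox8 in an intron of Lmf1.
Sox14 distal site: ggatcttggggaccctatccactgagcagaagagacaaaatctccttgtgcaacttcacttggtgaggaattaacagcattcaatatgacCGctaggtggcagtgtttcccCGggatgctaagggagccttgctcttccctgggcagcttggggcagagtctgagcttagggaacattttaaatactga
Sox8 distal site: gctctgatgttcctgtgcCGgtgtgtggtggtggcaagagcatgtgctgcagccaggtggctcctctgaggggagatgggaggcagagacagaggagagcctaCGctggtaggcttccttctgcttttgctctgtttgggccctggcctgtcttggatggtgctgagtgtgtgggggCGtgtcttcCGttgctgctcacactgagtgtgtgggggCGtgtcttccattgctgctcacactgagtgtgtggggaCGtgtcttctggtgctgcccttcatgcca
The Sox14 site held 2 CpG dinucleotides in 189 bases and the Sox8 site 6 in 282, against 23 and 18 in the 250 bases upstream of the same genes. The Sox11 site was richer, with 33 in 705 bases.

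Short motifs were counted in the middle 200 bp of each open site, on both strands, with letters matched exactly. A Sox-type motif (ACAATG or ACAAAG) was present in 22.4% of the 201 sites and in 23.9% of all ATAC-seq peaks. The octamer ATGCAAAT, which POU factors such as Pou5f1 bind, was present in 1.99% and 2.92%, and the E-box CACGTG in 4.48% and 3.92%. These shares were close to the background, and a match is a description of letters and not a bound site. Over whole peaks the octamer was uneven between the members, which was noticed after the values were seen. It occurred in 6 of 21 sites around Sox9 and in 2 of 28 around Sox1, and in none of the sites around the other 6 members, against 3.74% of all ATAC-seq peaks.

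The remaining Sox genes gave the nearest comparison within the family. Of 12 other Sox genes 11 had an H3K4me3 peak over the start, with Sry the exception, against 61.1% of all coding genes. The median of H3K4me3 bases within 5 kb over these 12 was 4016.5. Their median fold enrichment, with Sry counted as 0, was 22.4, beside 21.5 over all coding genes counted in the same way. Sox2, Sox4, Sox12 and Sox13 lay above 30.7, the median of the marked genes, and the others lay below it. Sox13 was highest at 51.7, and Sox5, Sox15 and Sox30 had 18.5, 13.1 and 19.1. Sox2, the B1 partner of Sox1 that ES cells use for pluripotency, had 7489 bases, close to the 7432 of Sox1, but a fold enrichment of 42.9 where Sox1 had 21.5. Sox3, the other B1 gene, had 6572 bases and a fold enrichment of 19.9. In group C, Sox4 had a fold enrichment of 36.7 and Sox12 of 39.3, both above the 26.3 of Sox11. In group F, Sox7 had 28.1 and Sox17 21.02, both above the 16.4 of Sox18. Sox11 and Sox18 were thus the lowest of their groups in fold enrichment, and Sox1 lay between the other two of group B1.

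Other regulators of the same lineages had a similar pattern. Of 22 neural and neural crest regulators, 21 had an H3K4me3 peak over the start and 22 had one within 5 kb. Over all coding genes these shares were 61.1% and 69.3%. The 22 regulators had a median of 4873 bases and a median fold enrichment of 17.4, beside 5768.5 and 19.03 for the 8 Sox genes. Foxd3, an early crest factor, had the most with 8629 bases and Ets1 the least with 1013. Of 18 genes of differentiated cells that these factors are known to regulate, 12 had a peak within 5 kb, with a median of 1926.5 bases. Both values were near those of all coding genes, 69.3% and 1761 bases. The melanin enzymes Dct and Tyr had no H3K4me3 peak within 5 kb, and Prox1, a factor of lymphatic vessels, was high with 7191 bases. These lists describe the same cells and were not tested against each other.

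**Figure D5:**
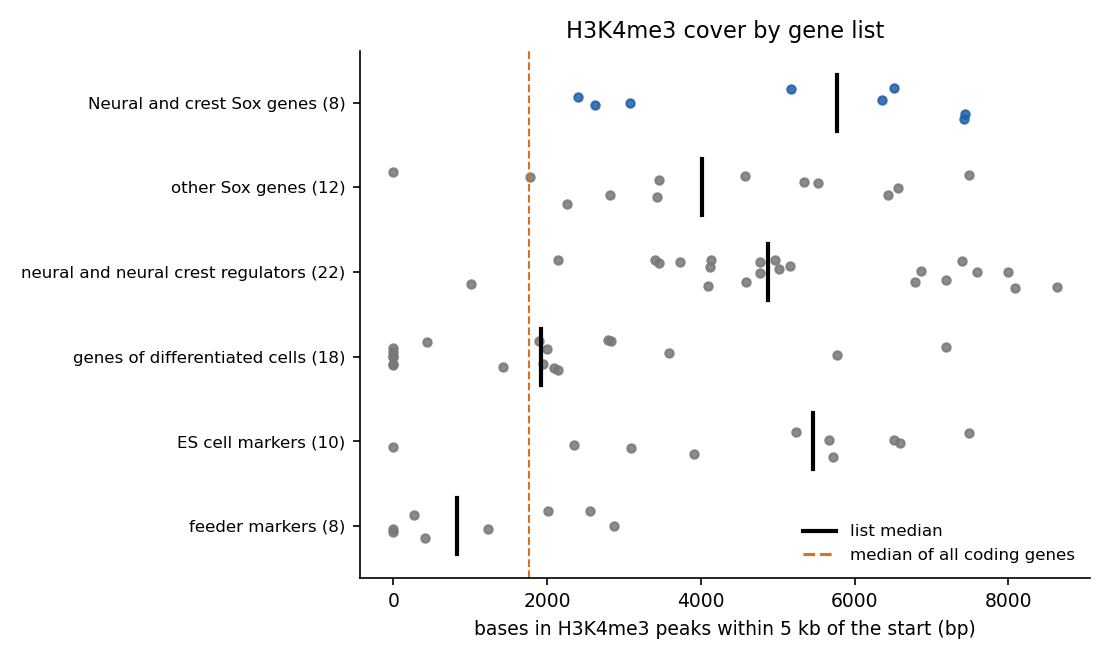
Bases in H3K4me3 peaks within 5 kb of the start (bp) for each gene of 6 lists, with the number of genes in brackets, the list medians (black bars) and the median of all coding genes (dashed line, 1761). The 8 Sox genes (blue) lie to the right of the dashed line, with a median of 5768.5.

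Across all coding genes outside the 8, those nearest to the members' medians in 3 percentiles (H3K4me3 bases within 5 kb, ATAC-seq bases within 5 kb and open sites within 100 kb) were Olig2, Lgr4, Pax6, Dalrd3 and Ina, at distances of 2.267 to 2.72 percentile points. The measure did not use fold enrichment, and the genes differed in it. Olig2 and Pax6, which act in neural progenitors, had 17.1 and 13.2, within the range of the Sox genes. Ina, a neuronal filament gene, had 33.9, Dalrd3 38.4 and the receptor gene Lgr4 47.0.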

How the data were processed

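Peak lists of H3K4me3 ChIP-seq and ATAC-seq from F123 cells were used, each 1 list over 2 replicates, both on mm10. For H3K4me3, the authors ran the ENCODE histone ChIP-seq pipeline with default settings; its aligner and threshold are not given in the sources used here. The deposited columns used were positions, the fold enrichment (a ratio over the caller's background), the −log10 q and the summit. Per the labels, the ATAC-seq list was made with Bowtie 1.1.2, MACS2 2.1.1.20160309 and bedtools 2.27.1, and it is deposited as positions alone. The paper states that its peaks were called at a p-value cutoff, and that a pooled peak was kept if each replicate also had it. Narrow and wide ATAC-seq peaks count alike here. PLAC-seq and input samples were not analysed here.

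A peak counted where it shared at least 1 bp with a window around the 5′ end of the GENCODE M21 gene record, which is on the build of the lists. Bases were read from the RefSeq GRCm38.p6 assembly and RefSeq promoters. Percentiles are shares of coding genes, or of peaks, with a lower value, and medians of fold enrichment over lists count genes without a peak as 0. All 8 members were named. Of the other lists at most 4 genes were named, those with most and fewest H3K4me3 bases and those whose call differed from most of the list, and any other Sox gene. Col1a2 and Thy1 were named outside this rule. Of distal sites the widest per member was named, and of similar genes the 5 nearest. The members and lists were chosen with earlier results of these data known, and no test was made. Alternatives changed the start, the overlap rule, the peak threshold, the window and the joining gap. The window functions gave the same values as bedtools 2.31.1 on all gene windows; Python 3.11.15, NumPy 2.4.6 and matplotlib 3.10.9 were used. Protein sequences were not analysed here.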

Additional observations from a re-analysis of the deposited data

How the results depend on the processing

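Of 43 alternatives to 8 results, 38 left the value within 1.5 times that reported, and 9 of the 43 (other windows, autosomal genes alone, a −log10 q of at least 5 and every transcript start, for the comparisons with marked genes) were chosen after seeing the data. The median of H3K4me3 bases fell from 5768.5 to 3364 with a 2 kb window and to 2001 with a 1 kb window, by the smaller window itself. The 201 open sites became 98 with the widest 50% of ATAC-seq peaks, 110 within 50 kb and 346 within 200 kb. All 8 members kept an H3K4me3 and an ATAC-seq peak beside the start at windows of 1 to 10 kb. Domain widths depended on the joining gap: Sox14 went from 11760 to 3447 bp without joining, and Sox1 from 9409 to 4354 bp without it and to 19833 bp at 3 kb. Sox21 went from 8222 to 5276 bp without joining and to 15415 bp at 3 kb, where Sox9 went to 9149 bp and Sox8 to 4610 bp. The covered-start counts were 5 of 8 in both lists with the start in the middle 50% of the peak. No paired analysis was possible because the 2 replicates were merged into a single list per assay, and leaving out a replicate was not run for the same reason. Depth is unknown, so a gene without a peak may lie below what was detectable.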
